A study of Mus musculus with 27 samples.

Results

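Interferon-stimulated genes are genes that cells switch on when an interferon binds its receptor. Here 38 such genes, taken by symbol, were followed through 5 ages of postnatal life among the 22855 genes counted in PDGFRα-expressing cardiac fibroblasts and in whole hearts of C57Bl/6 mice. RNA-Seq covered 12 fibroblast samples (3 each at postnatal day 1 and 4 weeks, 2 each at 14 weeks, at 1 year and at 1.5 years) and 15 heart samples (3 at each age). No animal carried a treatment or a genetic change according to the labels. The fibroblasts were released from ventricles by enzymatic digestion and sorted by flow cytometry for PDGFRα, a growth factor receptor that marks them, whereas heart RNA came from tissue, so that the isolation and the tissue cannot be told apart. All 38 genes passed the filter on low counts in both tissues.

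Type I interferons signal through the IFNAR1 and IFNAR2 receptor chains and the kinases JAK1 and TYK2. A complex that contains STAT2 and IRF9 then binds the interferon-stimulated response element (ISRE) in promoters. Type II interferon signals through IFNGR1 and IFNGR2 to factors that bind the gamma-activated site (GAS). The products include sensors of viral RNA, enzymes that degrade RNA or arrest translation, the ubiquitin-like modifier ISG15, and large GTPases that attack pathogen-containing vacuoles. In the heart these genes are best known for restraining cardiotropic viruses, and many keep a low level of expression in uninfected tissue.

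Levels are given as CPM, the counts of a gene relative to the size of its library, with libraries scaled within each tissue by the trimmed mean of M values. The sorted samples held all 8 fibroblast markers tested at higher levels than hearts, and all 8 cardiomyocyte markers at lower levels. Macrophage markers (summed over 11 genes) stood at 165 to 316 CPM in fibroblast samples at postnatal day 1, 415 to 767 CPM at 4 weeks, 52.6 to 70.1 CPM at 14 weeks, 21.8 to 22.3 CPM at 1 year and 87.6 to 107 CPM at 1.5 years. In hearts the same sum went from between 96.7 and 114 CPM at postnatal day 1 to between 551 and 705 CPM at 4 weeks and ended between 668 and 903 CPM at 1.5 years. The female-specific transcript Xist was at or below 0.570 CPM in every sample of 14 weeks and 1 year, and the male-specific transcript Ddx3y at or below 0.397 CPM in every sample of 1.5 years. Samples of postnatal day 1 and 4 weeks held both transcripts. Sex and age therefore cannot be told apart across these ages. Within the 4-week hearts, replicates 1 to 3 held Xist at 77.4, 6.48 and 140.5 CPM and Ddx3y at 33.9, 6.42 and 1.64 CPM. Whether a sample pooled animals is not given by the labels. In such bulk samples, fewer cells of a type and less RNA per cell cannot be told apart either.

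Some libraries stood apart from others of their age in these genes. Replicate 3 of the 4-week fibroblasts had the highest level of its age for 36 of the 38 genes, against 36% of all genes, and its endothelial markers (9 genes) summed to 2826 CPM against 1141 and 1248 CPM in the other two. Replicate 5 of the 1.5-year fibroblasts was above replicate 4 for 33 genes, against 43.7% of all genes, with an endothelial sum of 2168 against 861 CPM. Its mitochondrial transcripts made up 7.83% of counts, against 2.20% in replicate 4. For replicate 3 of the 4-week fibroblasts they were 3.73%, against 1.88 and 2.09% in the other samples of that age. Both 14-week fibroblast samples also had high endothelial sums, 2205 and 2457 CPM. Replicate 3 of the 1-year hearts was highest for 37 genes, against 38% of all genes. Its mitochondrial share was the lowest of its age, 29.2% against 33.0 and 33.2%. The leukocyte antigen gene Ptprc was 14.9 CPM in that heart against 8.30 and 8.54 CPM, while the macrophage sum of that heart, 660 CPM, lay within the 659 to 788 CPM of its age. Among the 4-week hearts, replicate 1 was highest for 32 genes, against 39.2% of all genes, and replicate 2 lowest for 31. Among the hearts of postnatal day 1, replicate 3 was highest for 30 genes and lowest for 0, against 35% of all genes highest in it. The part of these markers and of mitochondrial transcripts in the results was not tested.

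**Figure D1:**
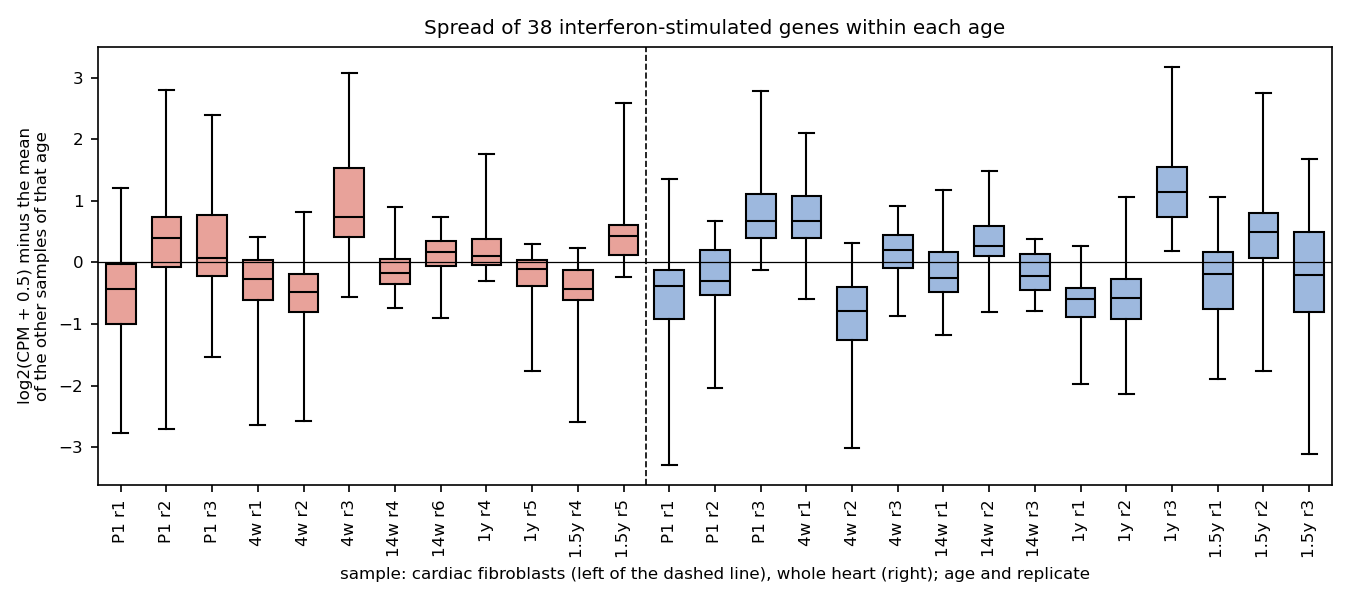
Spread of the 38 interferon-stimulated genes within each age. Each box gives, for 1 sample, the median and quartiles over the 38 genes of log2(CPM + 0.5) minus the mean of the other samples of that age and tissue, with whiskers to the lowest and highest gene; fibroblasts are left of the dashed line and hearts right of it. Replicate 3 of the 4-week fibroblasts and replicate 3 of the 1-year hearts lie above the others of their age.

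Promoter sequences, from 250 bases before to 50 after the transcription start, were found in RefSeq (GRCm38.p6) for 27 of the 38 genes. No entry was matched for Zbp1, Parp14, Dhx58, Gbp6, Oas2, Parp9, Mx2, Mx1, Usp18, Iigp1 and Gbp4. The ISRE was searched as GAAANNGAAA on both strands, which on the printed strand also reads TTTCNNTTTC, and the GAS as TTCNNNGAA. An ISRE match was present in 18 of the 27 promoters (66.7%) against 3.99% of the 27025 genes with a promoter in the table, and a GAS match in 10 of 27 (37%) against 9.55%. The following stretches belong to the 6 genes with the smallest p over age in whole heart among the 15 with an ISRE match upstream of the start, and show how the element lies in genes with different functions. Matches are in capitals with 40 bases on either side, 5′ to 3′ on the strand of the gene, and overlapping matches run together (2 in Bst2 and 3 in Isg15).
Gbp2, a vacuole-attacking GTPase, chr3:142620564-142620653, plus strand: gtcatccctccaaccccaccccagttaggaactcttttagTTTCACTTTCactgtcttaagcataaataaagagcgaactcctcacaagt
Bst2, the tetherin that holds budding virus at the membrane, chr8:71537547-71537642, minus strand: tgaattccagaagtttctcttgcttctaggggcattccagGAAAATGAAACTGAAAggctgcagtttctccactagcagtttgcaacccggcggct
Rsad2, the viperin enzyme, chr12:26456523-26456612, minus strand: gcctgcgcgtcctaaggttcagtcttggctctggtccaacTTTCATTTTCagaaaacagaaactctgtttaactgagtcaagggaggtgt
Isg15, the ubiquitin-like modifier, chr4:156200835-156200936, minus strand: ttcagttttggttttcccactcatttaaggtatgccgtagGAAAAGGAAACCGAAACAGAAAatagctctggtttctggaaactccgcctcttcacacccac
Irgm2, an immunity-related GTPase, chr11:58214873-58214962, plus strand: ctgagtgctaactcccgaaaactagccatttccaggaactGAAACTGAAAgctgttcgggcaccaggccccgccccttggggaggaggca
Gbp5, a vacuole-attacking GTPase, chr3:142496729-142496818, plus strand: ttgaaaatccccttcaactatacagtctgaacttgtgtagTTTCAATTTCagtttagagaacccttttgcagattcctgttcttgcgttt
These matches ended between 49 (Gbp2) and 155 (Gbp5) bases before the RefSeq transcription start. Irf1, a transcription factor that answers to type II interferon, had no ISRE match in its window and held a GAS match that ended 81 bases before its start. Its stretch was added after its values were seen, because its pattern over age differed between the tissues, and the GAS match is in capitals.
Irf1, chr11:53769884-53769972, plus strand: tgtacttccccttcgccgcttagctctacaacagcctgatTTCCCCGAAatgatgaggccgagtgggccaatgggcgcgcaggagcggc

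In fibroblasts, the mean of postnatal day 1 was the lowest of the 5 ages for 35 of the 38 genes, against 35% of all genes. The highest mean fell at 4 weeks for 17 genes (16.3% of all genes) and at 1.5 years for 15 (18.5%). In hearts the mean of postnatal day 1 was the lowest for 25 of the 38 genes (27.3% of all genes), that of 14 weeks for 8 (17.5%) and that of 1.5 years for 5 (27.3%). The highest mean in hearts fell at 4 weeks for 23 genes (13.2% of all genes), 1 year for 9 (15.1%), 1.5 years for 4 (23%) and postnatal day 1 for 2, Eif2ak2 and Trim25 (32.6%). A test of any difference over age (edgeR quasi-likelihood F test, Benjamini-Hochberg adjusted p under 0.05 over all genes) called 22 of the 38 genes in fibroblasts, where 19.9% of all genes were called, and 17 in hearts, where 34.3% were. At an unadjusted p under 0.05 there were 30 in fibroblasts (31.1% of all genes) and 22 in hearts (44.1%). The heart count at the adjusted threshold was 10 without replicate 1 of postnatal day 1 and 9 without replicate 2. Irf1, Irf7, Oas2, Oasl2, Ifit3, Rsad2, Bst2, Gbp2, Gbp5, Irgm2, Ifi35 and Parp14 were called in both, which is 54.5% of the fibroblast list and 70.6% of the heart list. Comparisons that follow share samples, since each age enters several of them.

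**Figure D2:**
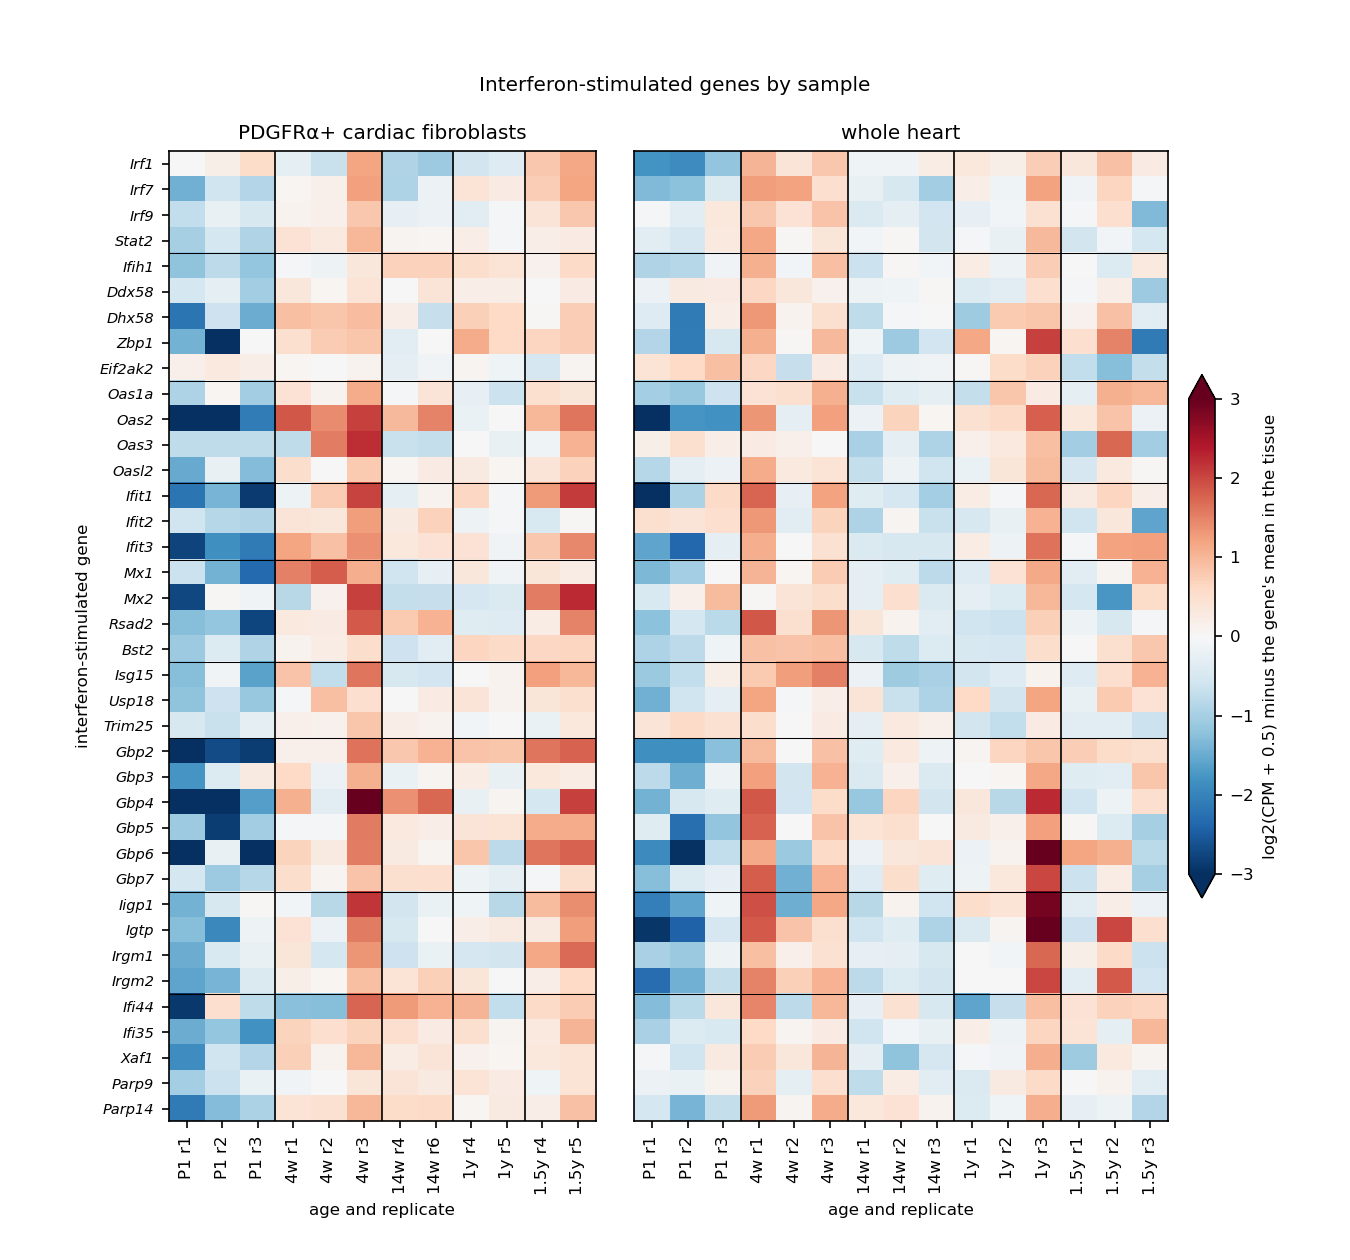
The 38 interferon-stimulated genes in every sample. Rows are genes grouped by role (transcription factors, nucleic acid sensors, OAS, IFIT, antiviral effectors, ISG15 system, GBP, IRG, other), columns are samples by age and replicate, and colour gives log2(CPM + 0.5) minus the mean of that gene over the tissue, from -3 (blue) to 3 (red). Postnatal day 1 is mostly blue in both tissues, and single columns such as replicate 3 of the 4-week fibroblasts and replicate 3 of the 1-year hearts are red across most rows.

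From postnatal day 1 to 4 weeks, a broad set of interferon-stimulated genes rose in fibroblasts. Of the 38 genes, 26 were higher at 4 weeks and 0 lower, against 9.28% of all genes higher, 6.2% lower and 15.5% called in either direction. The log2 fold change was above 0 for 37 of 38 genes (50.2% of all genes), with a median of 1.53, where the median of all genes was 0.00. The samples of both ages did not overlap, with 4 weeks on top, for 28 of the 38 genes (15.1% of all genes). Without replicate 3 of 4 weeks, the library with the high endothelial sum, 22 genes were called, and 21 of these were among the 26. Macrophage markers were also higher at 4 weeks, with 5 of 11 called. Cardiomyocyte markers (summed over 8 genes) went from between 696 and 759 CPM at postnatal day 1 to between 64.2 and 183 CPM at 4 weeks, with 5 of 8 called lower and a median log2 fold change of -2.76. Mitochondrial transcripts made up 6.15 to 9.18% of counts at postnatal day 1 and 1.88 to 3.73% at 4 weeks. The part of these shifts in the counts of called genes was not tested.

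Members of the IFIT family, which bind viral RNA and block its translation, all 3 rose in fibroblasts. Ifit3 stood at 2.45, 5.20 and 4.13 CPM at postnatal day 1, 45.5, 36.7 and 52.0 CPM at 4 weeks, 24.7 and 26.8 CPM at 14 weeks, 26.9 and 18.5 CPM at 1 year and 35.1 and 54.2 CPM at 1.5 years. Every later sample lay above every sample of postnatal day 1. Ifit3 rose 11.4-fold by 4 weeks (log2 3.51 ± 0.31 SE, adjusted p = 7.67e-06). Ifit1 went from 3.60 ± 2.07 to 36.6 ± 27.4 CPM (mean ± SD, n = 3 each, adjusted p = 0.00131) and Ifit2 from 16.3 ± 1.97 to 47.0 ± 18.5 CPM (adjusted p = 0.00162). Reads from Ifit3 and its near-identical neighbour Ifit3b may not be separable, so its level is uncertain.

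Among guanylate-binding proteins, the GTPases that attack pathogen vacuoles, 4 of 6 rose in fibroblasts. Gbp2 stood at 3.44, 5.56 and 4.86 CPM at postnatal day 1, 42.7, 43.0 and 119 CPM at 4 weeks, 67.7 and 78.9 CPM at 14 weeks, 69.4 and 68.7 CPM at 1 year and 117 and 132 CPM at 1.5 years. The postnatal day 1 samples were separated from all others, and 1 sample of 4 weeks reached the level of 1.5 years. By 4 weeks Gbp2 had risen 14.8-fold (log2 3.88 ± 0.37, adjusted p = 1.61e-05). Gbp5 rose from 6.64 ± 3.84 to 31.2 ± 22.2 CPM and Gbp7 from 20.5 ± 4.16 to 52.4 ± 14.2 CPM. Gbp4 was at 0, 0.0293 and 1.37 CPM at postnatal day 1 and at 11.8, 4.23 and 63.7 CPM at 4 weeks (adjusted p = 0.0183), so that its size rests on 1 high library. Gbp3 (29.8 ± 18.3 and 60.4 ± 24.9 CPM) and Gbp6 (1.02 ± 1.75 and 7.31 ± 3.63 CPM) did not pass the test.

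Of the OAS enzymes, which make the second messenger that activates RNase L, Oas2, Oasl2 and Oas3 passed in fibroblasts. Oas2 went from 0.542 ± 0.891 to 30.4 ± 6.63 CPM (log2 5.82 ± 1.08, adjusted p = 0.0026) and Oasl2 from 33.2 ± 17.2 to 86.3 ± 22.3 CPM. Oas3 had a count of 0 in all samples of postnatal day 1 and in 1 of 3 samples at 4 weeks. Its mean of 1.80 CPM at 4 weeks was 43.3 times the level that 3 counts in each library of postnatal day 1 would give. Oas1a, 1.78 ± 1.03 and 4.58 ± 1.92 CPM, did not pass, and reads from it and its close paralog Oas1g may not be separable.

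Of the 4 interferon-responsive transcription factors, 3 rose by 4 weeks in fibroblasts. Irf7, the factor that amplifies type I interferon production, went from 25.1 ± 7.29 to 73.0 ± 36.2 CPM (log2 1.54 ± 0.33, adjusted p = 0.00628), Irf9 from 43.7 ± 7.85 to 79.4 ± 23.5 CPM and Stat2 from 44.0 ± 7.80 to 117 ± 31.6 CPM (adjusted p = 0.000234). Irf1 did not pass (log2 0.05 ± 0.37, adjusted p = 0.975), with 291, 332 and 434 CPM at postnatal day 1 and 240, 186 and 673 CPM at 4 weeks. Its 4-week samples lay on both sides of those of postnatal day 1.

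Of the 5 sensors of RNA and other nucleic acids, 3 rose by 4 weeks in fibroblasts. Ifih1, which encodes the long double-stranded RNA sensor MDA5, stood at 13.8, 18.5 and 14.3 CPM at postnatal day 1, 31.2, 28.96 and 41.0 CPM at 4 weeks, 52.4 and 52.2 CPM at 14 weeks, 46.7 and 43.2 CPM at 1 year and 35.7 and 48.4 CPM at 1.5 years. No later sample overlapped with postnatal day 1 (log2 1.12 ± 0.20 at 4 weeks, adjusted p = 0.00174). Ddx58, which encodes RIG-I, rose from 34.7 ± 8.93 to 63.7 ± 7.70 CPM and Dhx58, the related LGP2, from 2.91 ± 1.85 to 14.9 ± 0.488 CPM. Eif2ak2, the kinase PKR that arrests translation, was 39.99 ± 1.82 and 35.7 ± 1.08 CPM and did not pass (adjusted p = 0.604). Zbp1, a sensor of Z-form nucleic acids, was 2.10 ± 2.45 and 8.23 ± 1.06 CPM and did not pass either (adjusted p = 0.251). Eif2ak2 was the single gene of the 38 with a log2 fold change below 0, at -0.16 ± 0.18.

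Antiviral effectors differed in size of change. Bst2 stood at 22.1, 35.8 and 25.5 CPM at postnatal day 1, 51.7, 56.1 and 68.8 CPM at 4 weeks, 30.7 and 37.9 CPM at 14 weeks, 75.6 and 71.3 CPM at 1 year and 74.2 and 74.9 CPM at 1.5 years. Both 14-week samples lay below every other later sample, and 1 of them within the range of postnatal day 1. At 4 weeks Bst2 had risen 2.12-fold (log2 1.08 ± 0.19, adjusted p = 0.00171). Rsad2 rose from 5.00 ± 2.67 to 32.3 ± 22.6 CPM (adjusted p = 0.00465). The Mx GTPases, which trap viral nucleocapsids, did not pass (Mx1 0.510 ± 0.549 and 6.58 ± 1.73 CPM, Mx2 7.35 ± 5.37 and 21.0 ± 21.4 CPM). Mx2 is annotated as a polymorphic pseudogene by GENCODE.

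In the ISG15 system, Isg15 itself rose from 7.53 ± 4.70 to 25.6 ± 17.6 CPM (adjusted p = 0.0381), Usp18, the protease that removes ISG15, from 3.99 ± 1.05 to 11.8 ± 3.95 CPM and Trim25, a ligase that works with RIG-I, from 42.7 ± 5.68 to 79.5 ± 23.8 CPM (adjusted p = 0.01). Igtp and Irgm2, immunity-related GTPases of vacuole defence, rose 3.47-fold and 2.83-fold. Both genes overlap on the same strand of chromosome 11, so that their reads cannot be fully assigned. Irgm1 (31.5 ± 12.99 and 73.8 ± 45.96 CPM) and Iigp1 (37.2 ± 17.4 and 105 ± 114 CPM) did not pass.

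Ifi35, Xaf1 and Parp14 also rose in fibroblasts by 4 weeks. Ifi35, an interferon-induced leucine zipper protein, stood at 6.14, 7.96 and 4.82 CPM at postnatal day 1, 29.2, 26.1 and 29.6 CPM at 4 weeks, 26.0 and 21.9 CPM at 14 weeks, 25.5 and 19.5 CPM at 1 year and 22.6 and 37.5 CPM at 1.5 years. No later sample overlapped with postnatal day 1, and the 4-week library that was high in most genes lay close to replicate 1 here (log2 2.17 ± 0.26, adjusted p = 0.000113). Parp14, an ADP-ribosyltransferase, stood at 10.98, 19.7 and 25.4 CPM at postnatal day 1, 66.2, 68.0 and 100.1 CPM at 4 weeks, 72.9 and 73.9 CPM at 14 weeks, 52.0 and 60.0 CPM at 1 year and 57.0 and 91.2 CPM at 1.5 years. The lowest later sample, at 52.0 CPM, lay above the highest of postnatal day 1, at 25.4 CPM (log2 2.06 ± 0.29, adjusted p = 0.000307). Xaf1, a factor linked to apoptosis, rose from 10.4 ± 4.42 to 34.4 ± 10.4 CPM (adjusted p = 0.00273).

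In whole heart, 17 of the 38 genes rose and 0 fell between postnatal day 1 and 4 weeks, against 12.1% of all genes higher, 6.1% lower and 18.2% called in either direction. The log2 fold change was above 0 for 35 genes (45.9% of all genes), with a median of 1.58 against -0.09 over all genes, and the ages did not overlap for 22 genes (18.2%). Under scaling by library size alone, 11 were called, 9 higher and 2 lower, and that scaling moved the median of all genes by -0.51. All 11 macrophage markers were also higher at 4 weeks. Endothelial sums went from between 756 and 1116 CPM to between 1375 and 1601 CPM. Cardiomyocyte sums went from between 36969 and 43670 CPM to between 64809 and 77126 CPM. Mitochondrial transcripts made up 10.8 to 13.7% of counts at postnatal day 1 and 14.9 to 26.7% at 4 weeks. The part of these shifts in the counts of called genes was not tested. Of the 17 genes, 14 were also higher in fibroblasts, which is 53.8% of the fibroblast list and 82.4% of the heart list, and 9 genes were called in neither tissue. The count was 8 without replicate 1 of postnatal day 1, 9 without replicate 2 of that age, 9 without replicate 1 of 4 weeks and 11 without replicate 3 of 4 weeks.

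Irf1 had the smallest p over age in hearts. It stood at 5.15, 4.76 and 8.13 CPM at postnatal day 1, 39.0, 24.9 and 34.0 CPM at 4 weeks, 17.3, 17.7 and 22.2 CPM at 14 weeks, 23.8, 21.6 and 31.9 CPM at 1 year and 24.5, 35.7 and 22.5 CPM at 1.5 years. The 3 samples of postnatal day 1 were below all others, and Irf1 rose 5.42-fold by 4 weeks (log2 2.44 ± 0.27, adjusted p = 7.79e-06). Gbp2 stood at 4.68, 4.73 and 7.38 CPM, then 35.5, 18.2 and 33.7 CPM, 13.9, 22.4 and 16.4 CPM, 19.4, 28.5 and 32.5 CPM, and 30.6, 27.01 and 25.7 CPM at the 5 ages in order. It too was lowest in all samples of postnatal day 1 (log2 2.38 ± 0.30 at 4 weeks, adjusted p = 2.39e-05).

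Other genes of the heart had a peak at 4 weeks. Bst2 stood at 12.8, 14.1 and 22.6 CPM at postnatal day 1, 45.5, 44.8 and 46.5 CPM at 4 weeks, 17.6, 14.3 and 18.5 CPM at 14 weeks, 17.6, 17.1 and 35.7 CPM at 1 year and 24.6, 34.3 and 43.5 CPM at 1.5 years. The 4-week samples were the highest and the closest to each other. Rsad2 stood at 6.66, 11.3 and 9.14 CPM at postnatal day 1, 61.1, 23.0 and 41.6 CPM at 4 weeks, 21.0, 17.7 and 12.7 CPM at 14 weeks, 10.7, 10.4 and 27.1 CPM at 1 year and 14.6, 11.6 and 15.9 CPM at 1.5 years. Irf7 stood at 6.45, 6.84 and 12.4 CPM, then 40.9, 39.3 and 24.1 CPM, 14.3, 11.9 and 7.96 CPM, 19.5, 15.3 and 39.8 CPM, and 15.5, 26.6 and 16.4 CPM. For both, the 4-week samples lay above every sample of postnatal day 1 and 14 weeks. The rise by 4 weeks was log2 1.47 ± 0.30 for Bst2 (adjusted p = 0.002), 2.21 ± 0.40 for Rsad2 (adjusted p = 0.000782) and 2.02 ± 0.38 for Irf7 (adjusted p = 0.00118).

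Oas2 in hearts stood at 0.207, 1.25 and 1.20 CPM at postnatal day 1, 14.4, 4.47 and 13.5 CPM at 4 weeks, 4.75, 8.93 and 5.75 CPM at 14 weeks, 7.65, 8.44 and 20.2 CPM at 1 year and 6.88, 10.2 and 4.76 CPM at 1.5 years. No later sample overlapped with postnatal day 1 (log2 3.60 ± 0.66 at 4 weeks, adjusted p = 0.000852). The other genes that rose in hearts by 4 weeks were Ifih1 (5.44 ± 1.98 to 14.0 ± 5.42 CPM), Oas1a (0.868 ± 0.258 to 3.64 ± 1.05 CPM), Oasl2 (10.6 ± 2.59 to 22.6 ± 7.61 CPM), Ifit3 (2.80 ± 2.38 to 10.5 ± 4.25 CPM), Isg15 (3.45 ± 1.92 to 11.97 ± 3.01 CPM), Gbp3 (8.73 ± 4.04 to 25.05 ± 13.4 CPM), Gbp5 (2.79 ± 1.98 to 13.9 ± 8.53 CPM), Igtp (4.86 ± 4.95 to 35.2 ± 18.2 CPM), Irgm2 (9.20 ± 5.00 to 52.7 ± 14.3 CPM), Ifi35 (10.7 ± 2.21 to 20.6 ± 4.07 CPM) and Parp14 (10.8 ± 3.24 to 37.5 ± 14.8 CPM). Zbp1, Mx1, Gbp6, Ifi44 and Parp9 passed in no comparison of either tissue. Their mean levels over the 5 ages ran from 0.510 (Mx1) to 31.3 CPM (Parp9) in fibroblasts and from 0.292 (Mx1) to 22.5 CPM (Parp9) in hearts.

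Genes with and without an ISRE match were both among those that rose by 4 weeks. In fibroblasts, 14 of 18 genes with a match and 7 of 9 without one were higher. In hearts it was 11 of 18 and 4 of 9. Of the 11 genes without a promoter entry, 5 were higher in fibroblasts and 2 in hearts. Among all genes, 9.28% were higher in fibroblasts and 12.1% in hearts. A match is a description of the letters in the window and not a site shown to be bound.

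**Figure D3:**
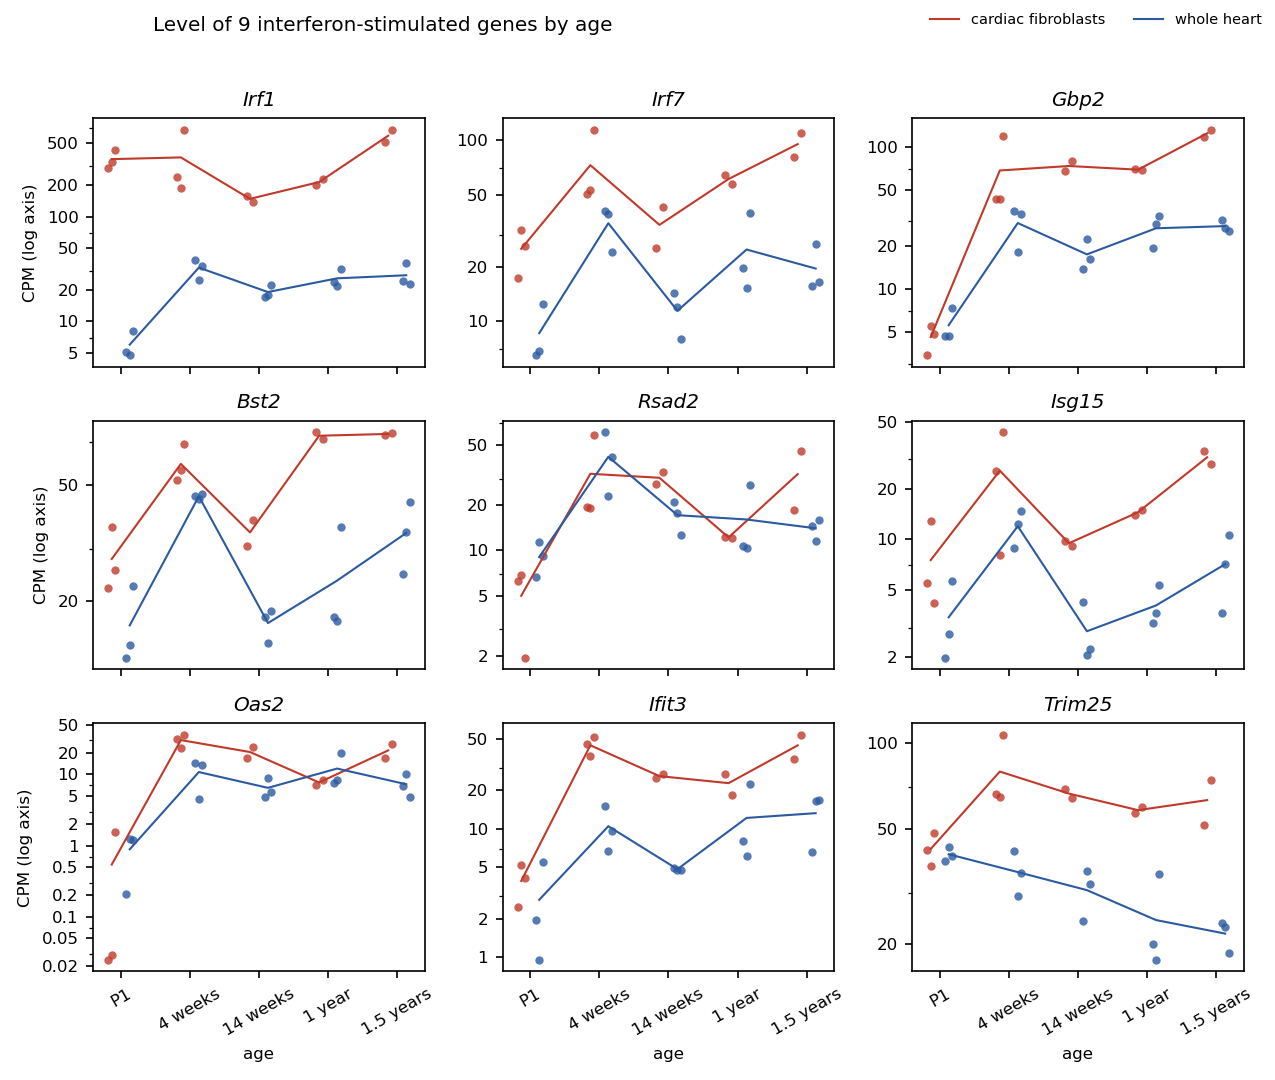
Levels of 9 interferon-stimulated genes by age in cardiac fibroblasts (red) and whole heart (blue). Each point is 1 sample in CPM, scaled within each tissue, on a log axis. Lines join the means, and ages are evenly spaced and not to scale. Irf1 lies between 186 and 673 CPM in fibroblasts of postnatal day 1 and 4 weeks while it rises in hearts, and Trim25 falls in hearts from 40.9 CPM at postnatal day 1 to 21.7 CPM at 1.5 years.

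After 4 weeks, fewer genes changed. In hearts, 3 of the 38 genes fell from 4 to 14 weeks, against 0.85% of all genes lower, 0.756% higher and 1.61% called in either direction. These were Irf7 (log2 -1.61 ± 0.38, adjusted p = 0.0416), Bst2 (-1.44 ± 0.30, adjusted p = 0.0205) and Isg15 (-2.07 ± 0.50, adjusted p = 0.0498). The log2 fold change was above 0 for 0 of 38 genes, where 48.8% of all genes were above 0, and its median was -1.07. The samples of 14 weeks lay wholly below those of 4 weeks for 21 genes (9.73% of all genes). The count of calls was 0 without replicate 3 of 4 weeks, and 0 without any one of the 14-week samples. It was 1 without replicate 1 of 4 weeks or replicate 1 of 1 year. Macrophage sums were also lower, between 551 and 705 CPM at 4 weeks and between 410 and 456 CPM at 14 weeks, as were endothelial sums, between 1375 and 1601 CPM and between 968 and 989 CPM.

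In fibroblasts, 0 of the 38 genes were called between 4 and 14 weeks by edgeR, against 1.79% of all genes higher, 2.08% lower and 3.87% in either direction. At an unadjusted p under 0.05 there were 8 genes (15.4% of all genes), and DESeq2 called 2, both lower. The median log2 fold change was -0.54, with 5 of 38 genes above 0 (48.8%) 12 genes wholly lower at 14 weeks (16% of all genes) and 1 wholly higher (18.7%).

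From 14 weeks to 1 year, Bst2 rose in fibroblasts, from 34.3 ± 5.04 to 73.5 ± 3.00 CPM (n = 2 each, log2 1.10 ± 0.23, adjusted p = 0.035), as 1 of 38 genes called against 1.31% of all genes higher and 1.78% called. At an unadjusted p under 0.05 there were 2 (12.3% of all genes), and 19 genes had a log2 fold change above 0 (47.9% of all genes). The call was lost without any one of the 4 samples compared. Fold changes of all genes followed transcript length (Spearman -0.24 over 13053 genes, higher in short genes), and Bst2 has 903 exonic bases. With an offset for transcript length and GC content, chosen after seeing the data, 0 of the 38 genes were called. In hearts, 0 of 38 genes were called by edgeR (0.972% of all genes), with 9 at an unadjusted p under 0.05 (14.1% of all genes) and 1 by DESeq2. The median there was log2 0.77, 35 genes were above 0 (53.2% of all genes), and the ages did not overlap for 11 genes (12.2%). Replicate 3 of the 1-year hearts stood far above the others in vacuole-defence GTPases. Iigp1 was 256 CPM in it against 49.9 and 46.2 CPM, Igtp 126 against 11.3 and 16.2 CPM, and Gbp6 31.5 against 2.97 and 3.73 CPM.

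From 14 weeks to 1.5 years, Irf1 and Bst2 rose in fibroblasts, as 2 of 38 genes against 1.91% of all genes higher, 0.816% lower and 2.72% called. In both tissues the 14-week samples held Ddx3y with almost no Xist, and those of 1.5 years the reverse. Sex and age thus cannot be told apart in this comparison. Irf1 went from 158 and 137 CPM to 516 and 663 CPM (4.00-fold, log2 2.00 ± 0.46, adjusted p = 0.0412), with no overlap. Bst2 reached 74.2 and 74.9 CPM (log2 1.12 ± 0.23, adjusted p = 0.0249). The median of the 38 genes was 0.37, 29 were above 0 (48.6% of all genes), and 21 did not overlap with 1.5 years on top (25.4% of all genes). The count was 0 without any one of the 14-week or 1.5-year fibroblast samples, and 5 without replicate 3 of 4 weeks. Fold changes of all genes followed transcript length in this fibroblast comparison (Spearman -0.18 over 13053 genes, higher in short genes). With the offset for length and GC content, chosen after seeing the data, 0 of the 38 genes were called. In hearts Bst2 alone rose (log2 1.02 ± 0.29, adjusted p = 0.0301), 1 of 38 genes against 4.91% higher and 12.8% called, with 7 at an unadjusted p under 0.05 (28.1% of all genes). That call was lost without any one of the 14-week hearts or without replicate 3 of 1.5 years. Fold changes of all genes followed transcript length in that heart comparison (Spearman -0.51 over 12972 genes, higher in short genes, a description over genes that share libraries), and Bst2 has 903 exonic bases where the median gene had 4456.5.

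Set against postnatal day 1, fibroblasts of 1.5 years had 24 of the 38 genes higher and 0 lower, against 9.86% of all genes higher, 6.46% lower and 16.3% called. The log2 fold change was above 0 for 37 genes (49.6% of all genes). The ages did not overlap for 36 of 38 genes (23.3% of all genes), and the median log2 fold change was 1.78 where it was 0.00 over all genes. Gbp2 was 26.9-fold higher (log2 4.75 ± 0.40, adjusted p = 4.28e-06), Ifit1 15.5-fold (3.96 ± 0.60, adjusted p = 0.000526) and Ifit3 11.4-fold (3.51 ± 0.32, adjusted p = 8.35e-06). Irgm1, an autophagy-linked GTPase, passed here and not at 4 weeks, with 31.5 ± 12.99 CPM at postnatal day 1 and 110 and 159 CPM at 1.5 years (log2 2.09 ± 0.45, adjusted p = 0.00583). Without replicate 5 of 1.5 years, the sample with the higher endothelial sum, 12 genes were called. Macrophage markers had 5 of 11 lower at 1.5 years than at postnatal day 1. The part of these marker shifts in the counts was not tested.

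Hearts of 1.5 years had 10 genes higher and 2 lower than at postnatal day 1, against 15.6% of all genes higher, 16.3% lower and 31.8% called in all. The 12 called genes were 31.6% of the 38, about the share of all genes. At an unadjusted p under 0.05 there were 14 (36.8%), against 42.6% of all genes. Irf1 was 4.58-fold higher (log2 2.20 ± 0.27, adjusted p = 1.32e-05) and Gbp2 4.96-fold (2.31 ± 0.30, adjusted p = 1.96e-05). Eif2ak2 fell from 14.3, 16.3 and 20.3 CPM to 6.22, 4.05 and 6.30 CPM (log2 -1.62 ± 0.33, adjusted p = 0.00144) and Trim25 from 38.8, 43.6 and 40.5 CPM to 23.6, 22.9 and 18.5 CPM (-0.92 ± 0.25, adjusted p = 0.00891), with no overlap in either. The median was 0.93 against -0.15 over all genes, and 30 genes were above 0 (45.1%). Fold changes of all genes followed transcript length here too (Spearman -0.39 over 12972 genes, higher in short genes). The 10 higher genes had from 903 exonic bases (Bst2) to 4451 (Oas2), below the median gene with 4456.5, while Eif2ak2 had 5113 and Trim25 5754. With an offset for transcript length and GC content, chosen after seeing the data, 8 were higher and 2 lower, and Oas1a, Ifit3, Bst2, Igtp and Ifi35 were no longer called, so that 3 of the 8 were other genes. Of 11 macrophage markers, 10 were higher at 1.5 years (median log2 2.19). Scaling by library size alone, which moved the median of all genes by -0.60, gave 4 higher and 4 lower. The 8 genes higher in both tissues (33.3% of the fibroblast list and 80% of the heart list) were Irf7, Oas2, Ifit3, Bst2, Gbp2, Igtp, Irgm2 and Ifi35. Igtp and Irgm2 rested partly on replicate 2 of 1.5 years, with 63.3 CPM against 9.75 and 21.9 CPM and 86.9 CPM against 18.996 and 15.999 CPM.

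**Figure D4:**
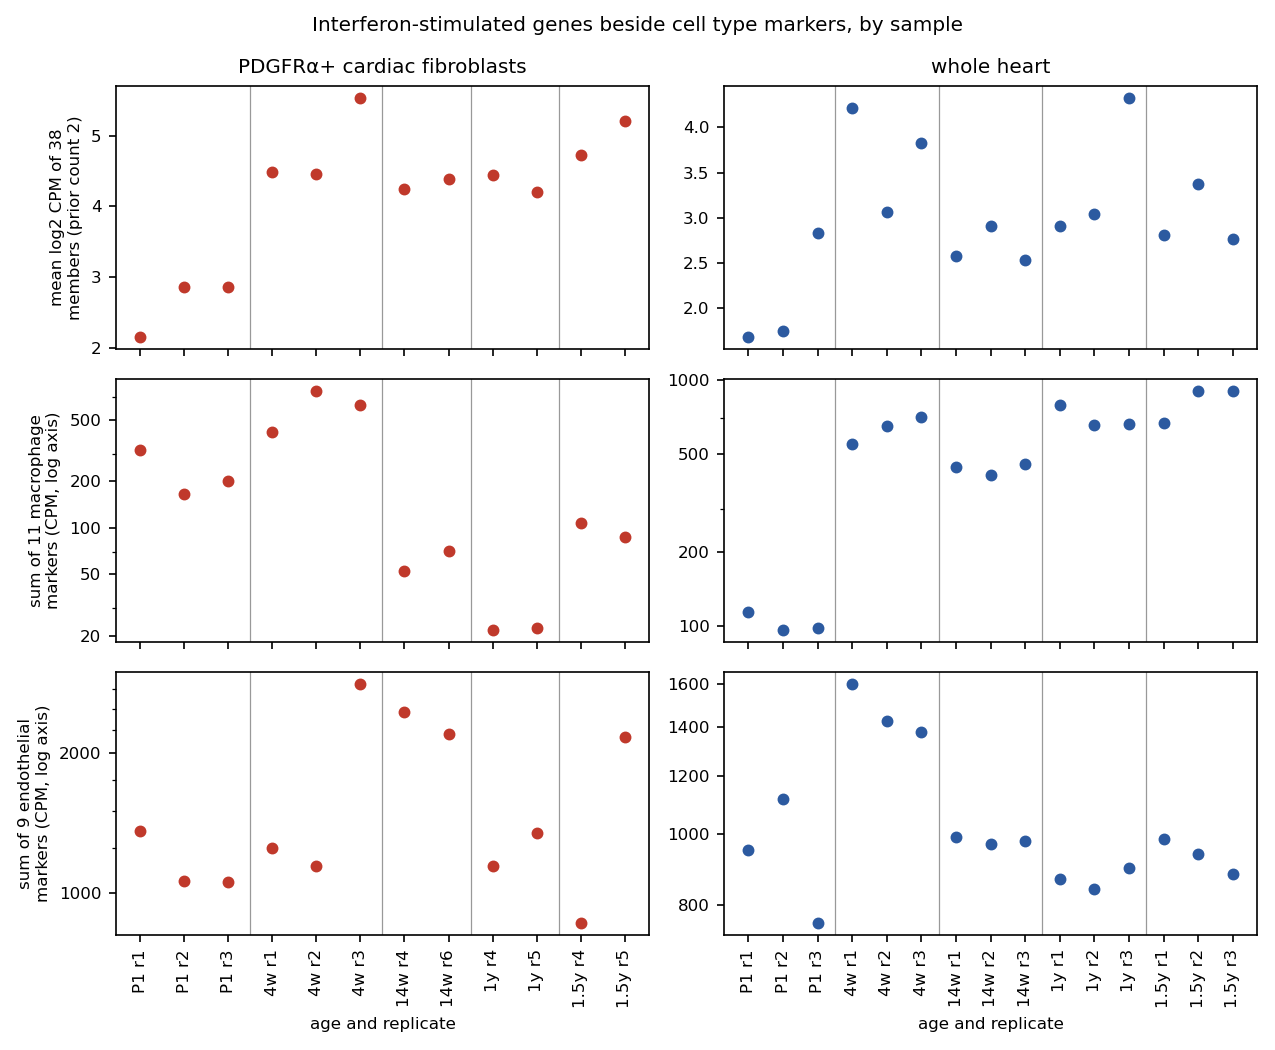
The 38 interferon-stimulated genes beside macrophage and endothelial markers in every sample. The top row gives the mean log2 CPM of the 38 genes (prior count 2), and the lower rows the summed CPM of 11 macrophage and 9 endothelial markers on log axes, with samples ordered by age and replicate. The fibroblast mean stays above that of postnatal day 1 at 14 weeks and 1 year. Macrophage sums are 70.1 CPM or less there, and endothelial sums of the 14-week fibroblasts are 2205 and 2457 CPM. The highest fibroblast sample of 4 weeks also has the highest endothelial sum. The part of these markers in the levels was not tested.

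Most interferon-stimulated genes were higher in fibroblasts than in hearts. With all 27 samples scaled together and averaged over the 5 ages, 24 of the 38 genes were higher in fibroblasts and 1 lower, against 27.7% and 29.1% of all genes (56.8% called). The median log2 difference was 1.02, and 31 genes were above 0 (49.7% of all genes). With the ages of postnatal day 1 and 4 weeks alone, 13 genes were called. Irf1 differed most (12.2-fold, log2 3.61 ± 0.16, adjusted p = 2.18e-15), followed by Mx2 (7.55-fold, 2.92 ± 0.47, adjusted p = 1.02e-05). Next came Oasl2 at log2 1.84 ± 0.16, Stat2 at 1.80 ± 0.15, Ddx58 at 1.73 ± 0.14, Ifih1 at 1.67 ± 0.15 and Gbp7 at 1.60 ± 0.28. Oas3 was lower in fibroblasts (log2 -2.59 ± 0.95, adjusted p = 0.0243), and its call was lost without any of 6 libraries in turn. One of them was replicate 2 of the 1.5-year hearts, which held 2.86 CPM where both others of its age had a count of 0. Genes that did not pass were Zbp1, Oas1a, Oas2, Mx1, Rsad2, Gbp4, Gbp6, Iigp1, Igtp, Irgm2, Ifi44, Ifi35 and Parp9. Of these, Rsad2 had a mean of 41.9 ± 19.1 CPM in 4-week hearts and 32.3 ± 22.6 CPM in 4-week fibroblasts, each scaled within its own tissue.

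Levels per kilobase of exon let genes be ranked within a tissue. Averaged over ages, Irf1 led in fibroblasts at 83.9 CPM per kb, ahead of Bst2 at 59.6, Gbp2 at 26.98 and Isg15 at 23.2. In hearts Bst2 led at 30.2 CPM per kb, ahead of Igtp at 13.1, Ifi35 at 10.1 and Iigp1 at 9.21, and Irf1 was in place 8 at 5.59. Igtp, Ifi35 and Iigp1 in hearts are neighbours whose order cannot be told from their spread, since Igtp ranged from 1.59 to 126 CPM and Iigp1 from 8.05 to 256 CPM over the heart samples. Oas3 was last in both tissues, at 0.0816 and 0.0957 CPM per kb.

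The change with age differed between the tissues in 3 genes by a test of the difference itself. From postnatal day 1 to 4 weeks, 2 of 38 genes (5.26%) differed, a smaller share than the 7.14% of all genes. The median over all genes was log2 0.17. Irf1 was one, with a change smaller in fibroblasts by log2 2.40 (-2.40 ± 0.47, adjusted p = 0.00178), since its level stayed between 186 and 673 CPM in fibroblasts while it rose in hearts from no more than 8.13 CPM to at least 24.9 CPM. Trim25 was the other (1.09 ± 0.33, adjusted p = 0.0475). It stood at 42.4, 37.2 and 48.5 CPM in fibroblasts of postnatal day 1 and 66.5, 64.99 and 107 CPM at 4 weeks, and at 38.8, 43.6 and 40.5 CPM and 42.1, 29.2 and 35.1 CPM in hearts. The call of Irf1 held with any 1 library left out, whereas that of Trim25 was lost without any of 21 of the 27 libraries in turn.

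Between postnatal day 1 and 1.5 years, 3 of 38 genes (7.89%) differed between the tissues, a smaller share than the 13.6% of all genes. The median difference over all genes was log2 0.32. Fold changes of all genes followed transcript length in hearts (Spearman -0.39) more than in fibroblasts (-0.02). Trim25 has 5754 exonic bases, Gbp2 2516 and Irf1 3976, and no offset for length was run for these differences. Gbp2 rose more in fibroblasts (2.41 ± 0.48, adjusted p = 0.00172), reaching 117 and 132 CPM where hearts reached 30.6, 27.01 and 25.7 CPM from no more than 5.56 and 7.38 CPM at postnatal day 1. Trim25 fell in hearts and was 51.9 and 74.5 CPM in fibroblasts of 1.5 years, 68.9 and 64.3 CPM at 14 weeks and 56.8 and 59.8 CPM at 1 year (difference 1.45 ± 0.35, adjusted p = 0.00706). In hearts its values at 14 weeks were 23.9, 35.8 and 32.4 CPM, and at 1 year 19.9, 17.5 and 35.0 CPM. Irf1 again changed less in fibroblasts (-1.49 ± 0.49, adjusted p = 0.0478), where it stood at 200 and 227 CPM at 1 year. Irf1 lost its call at this age without any of 11 libraries in turn, Trim25 without replicate 5 of the 1.5-year fibroblasts, and Gbp2 kept its call with each library left out. The count of calls was 1 without replicate 5 of the 1.5-year fibroblasts, and 5 without replicate 3 of the postnatal day 1 fibroblasts or without replicate 2 or 3 of the 1.5-year hearts.

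**Figure D5:**
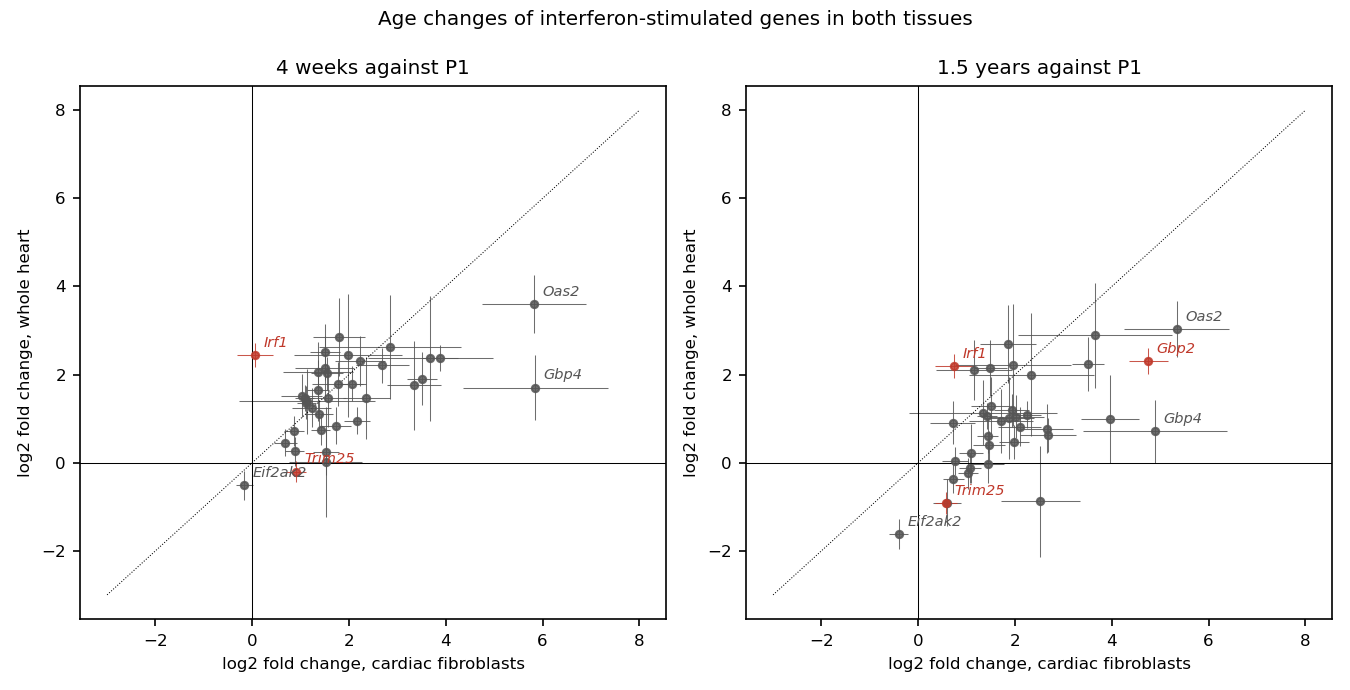
Log2 fold change of the 38 interferon-stimulated genes in cardiac fibroblasts (x) and whole heart (y), at 4 weeks and at 1.5 years against postnatal day 1. Bars are standard errors, the dotted line marks equal change, red marks genes whose change differed between the tissues, and Oas3, which had a count of 0 in all fibroblast samples of postnatal day 1, is not drawn. Irf1 lies left of the line and Gbp2 and Trim25 right of it at 1.5 years.

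Genes upstream of the 38 were read from fixed lists. The 13 interferon genes searched had no row in the count tables used here and were not analysed here. Of 10 genes of the receptor and kinase list, 2 were called over age in fibroblasts (19.9% of all genes) and 6 in hearts (34.3%). Among them Ifngr1, the ligand-binding chain of the type II receptor, rose in fibroblasts by 4 weeks, where 9.28% of all genes were higher. It went from 61.7 ± 22.9 to 148 ± 27.8 CPM (log2 1.26 ± 0.22, adjusted p = 0.00145), and further to 283 ± 9.99 CPM at 14 weeks (0.94 ± 0.23, adjusted p = 0.0458). In hearts Ifnar2, Ifngr1, Ifngr2, Il10rb and Jak1 rose by 4 weeks, by log2 0.86, 1.17, 1.02, 1.31 and 0.70 (12.1% of all genes higher). At 1.5 years against postnatal day 1, Ifnar2 (0.84), Ifngr1 (1.64) and Jak2 (0.61) were higher and Ifngr2 (-0.61) lower in fibroblasts. Of all genes, 9.86% were higher and 6.46% lower there. In hearts of that age Ifngr1, Ifngr2 and Il10rb were higher and Ifnar1 was lower (log2 -1.30 ± 0.24, adjusted p = 0.000508), and Jak1 fell from 14 weeks to 1.5 years by 0.88. Among all heart genes, 15.6% were higher and 16.3% lower than at postnatal day 1, and 7.86% fell from 14 weeks to 1.5 years. By a test of the difference, the log2 change of Ifngr2 was lower in fibroblasts than in hearts by 4 weeks (-1.18 ± 0.20, adjusted p = 0.000525). It was also lower by 1.5 years (-1.57 ± 0.22, adjusted p = 4.08e-05), where Ifngr2 fell in fibroblasts and rose in hearts.

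Of 13 genes of upstream sensing tested, 2 were called in fibroblasts at 4 weeks, against 15.5% of all genes. Tlr3, the endosomal double-stranded RNA receptor, rose by log2 1.12 ± 0.18, and Irf8, a factor best known from myeloid cells, fell by 1.04. Irf8 means in fibroblasts were 127, 61.8, 16.7, 26.5 and 77.8 CPM over the 5 ages, with a rise from 14 weeks to 1.5 years of log2 2.22 ± 0.21 (adjusted p = 0.000301). Myd88, the adaptor of Toll-like receptors, rose from 73.5 ± 8.505 CPM at 14 weeks to 250 ± 1.44 CPM at 1.5 years (1.77 ± 0.27, adjusted p = 0.00521). In hearts 7 of the 13 were called over age, against 34.3% of all genes. Mavs (1.40), Tmem173, which encodes STING (1.17), and Irf5 (1.65) rose in hearts by 4 weeks. Ikbke, a kinase of this pathway, rose from 14 weeks to 1.5 years (2.19 ± 0.65), Irf8 fell by 1.35 from 4 to 14 weeks and rose by 1.39 to 1.5 years, and Tbk1 was below its level of postnatal day 1 at 1.5 years (-0.76 ± 0.27).

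Of 6 inhibitors of interferon signalling, 4 were called over age in fibroblasts (Socs1, Socs3, Pias1 and Irf2), against 19.9% of all genes. Socs1, which blocks JAK kinases, had means of 29.2, 98.9, 19.2, 99.7 and 185 CPM over the 5 ages. It rose by 4 weeks (log2 1.76 ± 0.24, adjusted p = 0.000233), fell by 14 weeks (-2.36 ± 0.28, adjusted p = 0.000803), and was higher again at 1 year (2.38 ± 0.30, adjusted p = 0.00247) and 1.5 years (3.26 ± 0.31, adjusted p = 0.000301) than at 14 weeks. Socs3, the inhibitor best known for cytokines of the IL-6 family, rose by 1.28 by 4 weeks and by 1.48 from 14 weeks to 1 year. Irf2, a repressor at ISREs, rose by 0.62 at 4 weeks. In hearts 2 of the 6 were called over age, against 34.3% of all genes. Socs1 means there lay between 1.20 and 3.54 CPM. Ptpn6 rose by 1.19 and Ptpn2 fell by 1.17 in hearts from postnatal day 1 to 4 weeks. Socs3 was higher there at 1.5 years than at postnatal day 1 (1.67 ± 0.50).

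A list of 61 further interferon-stimulated genes was counted in the same way. In fibroblasts 35 were higher and 2 lower at 4 weeks than at postnatal day 1 (median log2 1.58), against 9.28% and 6.2% of all genes. At 1.5 years 33 were higher and 0 lower (1.73), against 9.86% and 6.46%. In hearts 23 were higher and 0 lower at 4 weeks (1.41), against 12.1% and 6.1% of all genes. There 4 were lower at 14 weeks than at 4 weeks (0.85% of all genes), and 10 were higher at 1.5 years than at 14 weeks (4.91%). Hearts of 1.5 years had 25 higher and 2 lower than those of postnatal day 1, against 15.6% and 16.3%. The 5 with the smallest p in fibroblasts were Ifi203, Ifi207, Tap2, Ifitm3 and Samd9l. Ifi203 and Ifi207, relatives of DNA sensors, had means of 6.13, 66.6, 135, 115 and 197 CPM and of 10.1, 49.9, 234, 177 and 258 CPM over the ages, and both rose again from 4 to 14 weeks (1.02 ± 0.26 and 2.23 ± 0.34). Tap2, a peptide transporter of antigen presentation, went from 10.4 to 109 CPM. In hearts the 5 were Ifi27l2a, Ifitm3, Ifi27, Tap2 and Sp100. Ifi27l2a had means of 7.42, 31.0, 12.47, 32.9 and 44.5 CPM in hearts, with a rise by 4 weeks (2.06 ± 0.25), a fall by 14 weeks (-1.32 ± 0.25) and a rise by 1 year (1.40 ± 0.25). Ifitm3, which blocks virus entry, had means of 34.1, 90.6, 50.3, 74.3 and 110 CPM in hearts and 187, 308, 311, 517 and 542 CPM in fibroblasts.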

How the data were processed

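Per the labels and the study's methods, polyadenylated RNA was sequenced single-end, and the authors aligned reads to mm10 with STAR 2.5.3a and deposited raw counts per gene. The annotation and the strand setting are not given in the sources used here, so reads of overlapping and antisense genes may not be separable. Totals ran from 54615898 to 76758831 counts in fibroblasts and from 46091271 to 67984404 in hearts. Of the 24 pairs of samples within a group, 0 were identical. By the study's methods, samples of an age came from different animals, and the sets of fibroblasts from different hearts. The study also describes the fibroblasts as coming from the hearts profiled, so both tissues may share animals, and the tests treated them as independent.

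Genes with low counts were removed by filterByExpr in edgeR 4.0.16 (18759 genes kept in fibroblasts, 17995 in hearts, 20650 in both together). Counts were scaled by the trimmed mean of M values and tested by quasi-likelihood F tests with Benjamini-Hochberg adjustment over all genes (threshold 0.05). Standard errors were derived from each log2 change and its F statistic (absolute change over the root of F). Fold changes used the default prior count of edgeR, and mean log2 CPM levels a prior count of 2. Tissue and difference-between-tissue tests used 1 fit over the 27 samples. Exon lengths came from GENCODE (GRCm38, 95.4% of genes matched) and promoters from RefSeq. The script was tested on simulated data. Alternatives included DESeq2 1.42.0, other scaling, no filter, fewer ages and each library left out.

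The members and lists were chosen with earlier results of these data known. Values in every sample were given for up to 6 genes per tissue with the smallest p over age and up to 3 per test of the difference between tissues; other genes past the threshold were given by age, and those that never passed by range. Promoters were printed for up to 6 genes with an upstream ISRE match in order of p over age in whole heart. One gene of the pathway lists is not reported here.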

Additional observations from a re-analysis of the deposited data

Results flagged for a closer look

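In 3 of the 38 interferon-stimulated genes, the change with age differed between cardiac fibroblasts and whole heart by a test of that difference (edgeR quasi-likelihood test, Benjamini-Hochberg adjusted over 20650 genes), and each value is the log2 change in fibroblasts minus that in hearts. These were 2 of 38 genes (5.26%) from postnatal day 1 to 4 weeks, against 7.14% of all genes. Between postnatal day 1 and 1.5 years they were 3 of 38 (7.89%), against 13.6%. At each age the share lay below that of all genes. From postnatal day 1 to 4 weeks it was -2.40 for Irf1 (adjusted p = 0.00178) and 1.09 for Trim25 (adjusted p = 0.0475). Between postnatal day 1 and 1.5 years it was 2.41 for Gbp2 (adjusted p = 0.00172), 1.45 for Trim25 (adjusted p = 0.00706) and -1.49 for Irf1 (adjusted p = 0.0478). The call of Trim25 at 4 weeks was lost without any one of 21 of the 27 libraries, that of Irf1 at 1.5 years without any one of 11, and that of Trim25 at 1.5 years without replicate 5 of the 1.5-year fibroblasts. Isolation by digestion and sorting was applied to the fibroblasts alone and cannot be told apart from the tissue.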

How the results depend on the processing

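Counts of called genes among the 38 are given with the main count in brackets. With DESeq2, fibroblasts had 2 from 4 to 14 weeks (0 with edgeR) and 6 from 14 weeks to 1.5 years (2), and hearts had 7 from 4 to 14 weeks (3), 1 from 14 weeks to 1 year (0) and 2 from 14 weeks to 1.5 years (1), while 4 genes differed between tissues at 4 weeks (2). With only the ages compared in the fit, fibroblasts had 6 from 14 weeks to 1 year (1) and 11 from 14 weeks to 1.5 years, and hearts had 6, 3 and 2 in the same 3 later comparisons. That setting gave 13 between tissues (25) and 1 for the difference at 4 weeks. Scaling by library size alone gave 0 from 14 weeks to 1 year and 1 from 14 weeks to 1.5 years in fibroblasts, 11 at 4 weeks in hearts (17), and 5 and 11 for the differences between tissues at 4 weeks and 1.5 years (2 and 3). It moved the median of all genes by -0.18 in both of those fibroblast comparisons, -0.15 between postnatal day 1 and 1.5 years, -0.24 in hearts from 4 to 14 weeks, 0.12 in hearts from 14 weeks to 1.5 years, 0.29 between tissues and by 0.43 and 0.41 in the differences. Without the filter there were 4 from 14 weeks to 1.5 years in fibroblasts and 1 for the difference at 4 weeks, and median-of-ratios scaling also gave 1 there. An offset for length and GC content, chosen after seeing the data, gave 0 in fibroblasts from 14 weeks to 1 year and to 1.5 years and 0 in hearts from 14 weeks to 1.5 years. That offset was run within each tissue and not for the tests between tissues. Leaving out replicate 3 of the 4-week fibroblasts and replicate 3 of the 1-year hearts together, also chosen after seeing the data, gave 1 and 6 for the differences. The causes were not tested.

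With 1 library left out in turn, fibroblast counts ranged from 18 to 23 over any age, 22 to 27 at 4 weeks, 0 to 1 from 4 to 14 weeks, 0 to 1 from 14 weeks to 1 year, 0 to 5 from 14 weeks to 1.5 years, and 12 to 28 between postnatal day 1 and 1.5 years. Heart counts ranged from 9 to 21 over any age, 8 to 19 at 4 weeks, 0 to 4 from 4 to 14 weeks, 0 to 0 from 14 weeks to 1 year, 0 to 2 from 14 weeks to 1.5 years, and 8 to 14 between postnatal day 1 and 1.5 years. Between tissues the range was 24 to 27, and 1 to 4 and 1 to 5 for the differences at 4 weeks and 1.5 years. No called value of a gene reversed its direction under any alternative run.

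Deviations of same-numbered samples from their group means correlated between -0.0316 and 0.0356 in fibroblasts and between -0.0619 and 0.102 in hearts. Between same-numbered fibroblast and heart samples they correlated between -0.0176 and 0.0155 at postnatal day 1 and between -0.0417 and 0.0225 at 4 weeks (3 pairs each). With 2 or 3 samples in a group, these values cannot show whether samples of the same number shared an animal. With the replicate block, 23 genes were called at 4 weeks in fibroblasts (26 without it), 0 from 14 weeks to 1 year, 0 from 14 weeks to 1.5 years, 1 in hearts from 4 to 14 weeks and 13 between tissues at postnatal day 1 and 4 weeks. The block could not be estimated for 4 fibroblast or difference comparisons.

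Groups held 2 or 3 samples each, which limits the precision of every value.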
